A study of Mus musculus with 23 samples.

Results

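The genes described here are 40 markers and working parts of brain blood vessels, taken as a fixed list from the 45706 gene rows of a hippocampal count table. They comprise 25 endothelial genes, 5 pericyte genes, 4 smooth muscle genes and 6 genes of perivascular fibroblasts and vessel matrix. All 40 were found in the table, and each had at least 1 count in every library. The RNA came from dissected hippocampus of female mice, 12 wild-type (Ins2+/+, WT) and 11 lacking Ins2 (Ins2-/-, KO), with 1 library each. Ins2 encodes one of the insulins of the mouse, and the series title concerns brain insulin production, learning and memory. The labels give no age, strain, litter, dissection day or breeding scheme, and name no agent or second allele. The p-values below therefore measure the spread between these libraries, whatever its source.

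Brain capillaries are lined by endothelial cells sealed by tight junctions and equipped with transporters and efflux pumps, which together form the blood-brain barrier. Pericytes sit on the capillary wall, smooth muscle cells wrap arteries and arterioles, and fibroblasts lie along larger vessels and in the meninges. The choroid plexus, which makes cerebrospinal fluid in the ventricles beside the hippocampus, has its own vessels, stroma and epithelium, and Ttr (transthyretin) is a major product of that epithelium.

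Libraries held 13792274 to 22953261 counts. Ins2 had 0 counts in all KO libraries and 26 counts in 7 of the 12 WT libraries. A Ttr count under 10000 was found in 10 WT and 8 KO libraries (7 to 1173 counts), called Ttr-low here. The other 5 were WT libraries 14 and 17 and KO libraries 2, 6 and 12 (43446 to 296745 counts), called Ttr-high. The highest Ttr-low library had 1173 counts and the lowest Ttr-high library 43446. KO library 8, which is Ttr-low, stood apart: 12 hypothalamic genes summed to 1636 CPM (counts scaled to library size) against 3.88 to 20.3 CPM in the other libraries, and 9 genes of dentate gyrus and pyramidal neurons summed to 1142 CPM against at least 3086 CPM. Values without it are given beside the main results of each gene group, a comparison extended to these after seeing the data.

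Promoters of 3 genes are shown for the 3 behaviours described below: Acta2 in smooth muscle and Col1a2 in fibroblasts varied widely between libraries, and Cldn5 in endothelium varied less. The sequences are from RefSeq (GRCm38.p6), 250 bases before to 50 after the annotated start, written 5′ to 3′ on the gene's strand. Capitals mark the letters CCAAT on either strand, so a match on the other strand reads ATTGG. The Acta2 promoter is chr19:34255324-34255623 on the minus strand, that of Col1a2 is chr6:4505368-4505667 on the plus strand, and that of Cldn5 is chr16:18776597-18776896 on the plus strand.
Acta2: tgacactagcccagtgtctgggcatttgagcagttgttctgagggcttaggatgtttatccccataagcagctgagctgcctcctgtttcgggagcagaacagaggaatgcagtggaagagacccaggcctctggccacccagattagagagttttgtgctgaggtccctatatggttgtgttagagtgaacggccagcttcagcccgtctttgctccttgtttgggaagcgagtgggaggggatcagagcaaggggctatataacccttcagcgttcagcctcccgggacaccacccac
Col1a2: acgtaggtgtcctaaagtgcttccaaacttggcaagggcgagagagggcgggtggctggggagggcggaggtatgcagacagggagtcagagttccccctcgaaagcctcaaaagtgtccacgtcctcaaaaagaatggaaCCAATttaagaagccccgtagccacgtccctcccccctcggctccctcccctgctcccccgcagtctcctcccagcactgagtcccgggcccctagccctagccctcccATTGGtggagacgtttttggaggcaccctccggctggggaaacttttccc
Cldn5: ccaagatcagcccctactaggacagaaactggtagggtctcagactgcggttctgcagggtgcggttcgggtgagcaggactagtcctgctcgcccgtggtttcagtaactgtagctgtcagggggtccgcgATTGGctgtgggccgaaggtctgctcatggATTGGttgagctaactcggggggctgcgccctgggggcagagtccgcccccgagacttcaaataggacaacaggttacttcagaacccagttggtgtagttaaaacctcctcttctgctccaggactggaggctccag
The printed Col1a2 promoter holds CCAAT 2 times, 109 bases before the annotated start and at the start itself, and that of Cldn5 holds it 2 times, 118 and 88 bases before the start. The Acta2 promoter holds none. RefSeq promoters were found for 28 of the 40 genes, 37 promoters in all. CCAAT was present in 14 of these 37 and in 37.4% of all 32851 promoters of this length. CAGGAA, on either strand, was present in 12 of 37 and in 30.6% of all. The CArG box, known as the site of serum response factor, was present in 0 of 37 and in 1.63% of all. Only its strict form was searched, CC, then 6 bases that are each A or T, then GG, on both strands. The CArG elements known in Acta2 depart from that form, and looser forms were not searched, so the lack of a match does not bear on whether the gene has them. These are matches of letters in a 300-base window and were not compared with expression.

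Per kilobase of the longest annotated transcript, the highest levels in Ttr-low WT libraries (n = 10) belonged to genes of several cell types. Vtn, which encodes vitronectin and is made by pericytes, stood at 18.8 ± 5.96 CPM per kb (SD). Ly6c1, an endothelial surface antigen, followed at 17.6 ± 4.29, and Rgs5, a pericyte regulator of G protein signalling, at 16.1 ± 4.00 CPM per kb. These means lay within 1 SD of each other. Tjp1, the junction scaffold ZO-1, and Tfrc, the transferrin receptor, both stood at 15.7 CPM per kb, and both are also expressed outside vessels. Cldn5, the main claudin of the barrier, stood at 10.2 ± 2.13 CPM per kb. At the low end were Col3a1, a fibrillar collagen, at 0.33 ± 0.27 CPM per kb and Cnn1, a smooth muscle calponin, at 0.16 ± 0.15 CPM per kb. In bulk tissue, fewer cells of a type and less RNA per cell cannot be told apart.

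No vascular gene passed the test between genotypes, in all libraries or in Ttr-low libraries. Of the 40 genes, 39 passed the filter on low counts, and Cnn1, with 1 to 22 counts per library, did not. By edgeR's quasi-likelihood test with Benjamini-Hochberg adjustment over all tested genes, 0 of 39 were called in all libraries, where 2 of 15828 genes (0.0126%) were called. In Ttr-low libraries 0 of 39 were called, where 1 of 15879 genes (0.0063%) was called. DESeq2 and limma voom also called 0 of them in either set. At an unadjusted p under 0.05 there were 0 of 39 in all libraries against 5.74% of all tested genes, and 1 of 39 in Ttr-low libraries against 9.14% of all tested genes. In all libraries 26 of 39 log2 fold changes (KO minus WT) were positive, with a median of 0.07 against 0.00 over all tested genes. In Ttr-low libraries 11 were positive and 28 negative, with a median of -0.06 against -0.00. Signs differed between the 2 fits for 17 of the 39 genes, of which 16 were positive in all libraries and negative in Ttr-low ones. Without KO library 8 there were 2 of 39 at an unadjusted p under 0.05 in Ttr-low libraries, Ocln and Ly6a, against 8.05% of all tested genes. Positive log2 fold changes then numbered 8 of 39 in Ttr-low libraries and 27 of 39 in all, and signs differed for 21 genes. The Ttr-low median was -0.10 without KO library 8 and -0.01 without KO library 22. The 95% intervals stayed within 1 on the log2 scale (a 2-fold difference) for 35 of 39 genes in each set.

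**Figure D1:**
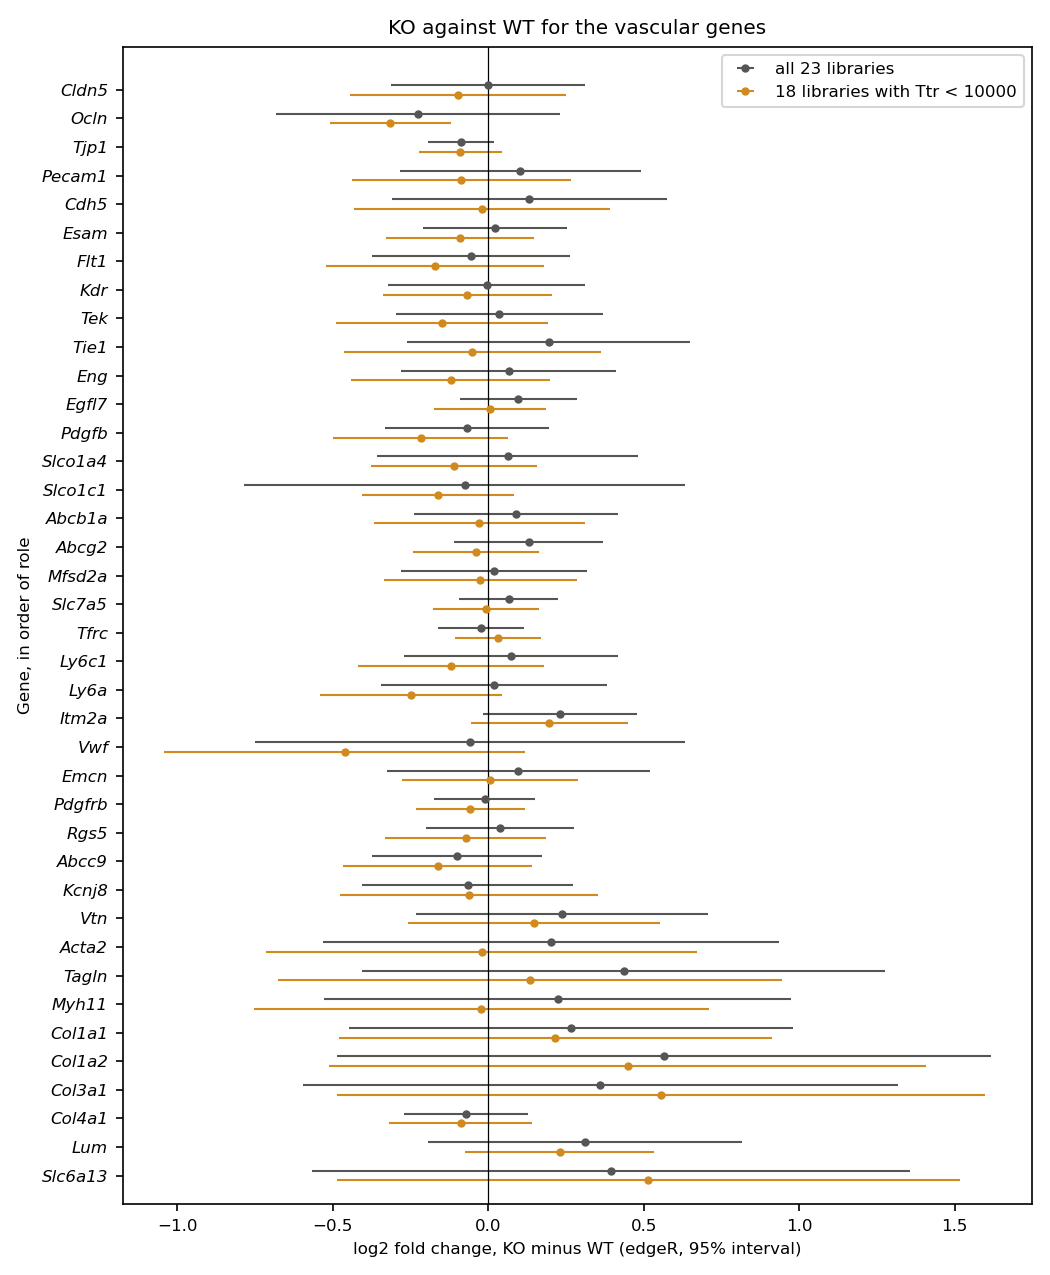
Log2 fold change (KO minus WT, x axis) with its 95% interval for the 39 tested genes, in order of role, in all 23 libraries (grey) and in the 18 Ttr-low libraries (orange). In Ttr-low libraries the interval of Ocln alone lies clear of 0, and the intervals of smooth muscle genes, fibrillar collagens, Slc6a13 and Vwf are among the widest.

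Among junction and adhesion genes, Cldn5 had nearly equal levels in the genotypes. It lies on chromosome 16 at 18776847 to 18778262 (GRCm38). In Ttr-low libraries the lowest, median and highest values were 8.19, 14.8 and 18.3 CPM in WT and 7.90, 13.1 and 19.4 CPM in KO. The low ends belonged to WT library 24 and KO library 22, the high end of KO to library 8, and the ranges overlapped almost entirely. Its log2 fold change was -0.10 (SE 0.17, edgeR adjusted p = 0.847) in Ttr-low libraries and -0.00 (SE 0.15, adjusted p = 0.9998) in all. Pecam1, which joins endothelial cells to each other, Cdh5, the endothelial cadherin, and Esam, an endothelial adhesion molecule, had Ttr-low KO means of 9.06, 5.89 and 7.05 CPM against WT means of 9.57, 5.94 and 7.48 CPM. Each difference was smaller than the SD within either genotype. Tjp1 had means of 105 CPM in KO and 111 CPM in WT. All 6 log2 fold changes were negative in Ttr-low libraries, with a median of -0.09, or -0.17 without KO library 8. That of Cldn5 was then -0.18 (SE 0.16).

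Ocln was the member at an unadjusted p under 0.05. It encodes occludin, a membrane protein of tight junctions that epithelia make as well as endothelium. In Ttr-low libraries the lowest, median and highest values were 11.9, 13.96 and 16.1 CPM in WT and 7.53, 11.2 and 13.5 CPM in KO. Most KO libraries lay below the lowest WT library, but KO libraries 4 and 13 lay within the WT range, so the groups overlapped. The KO mean was 11.1 CPM with an SD of 1.71 over 8 libraries, and the WT mean 13.7 CPM with an SD of 1.503 over 10. The log2 fold change was -0.31 (SE 0.09), with an unadjusted p of 0.00322 and an edgeR adjusted p of 0.538, which did not pass. Without KO library 8, which had the lowest value, it was -0.25. Over all 23 libraries it was -0.22 (SE 0.22, adjusted p = 0.816), and without WT library 17, whose Ocln level was 40.9 CPM, it was -0.01.

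Endothelial receptors and growth factors had 6 of 7 negative log2 fold changes in Ttr-low libraries, with a median of -0.12, and 4 of 7 positive in all libraries, with a median of 0.04. Flt1 and Kdr are receptors for vascular endothelial growth factor. Flt1 ranged from 20.8 to 45.3 CPM in WT and from 19.6 to 40.1 CPM in KO, and Kdr from 6.40 to 11.5 CPM in WT and from 6.05 to 11.2 CPM in KO. The genotypes thus covered nearly the same range for both. Tek and Tie1, the receptors of the angiopoietin system, had KO means of 6.18 and 4.06 CPM against WT means of 6.82 and 4.19 CPM. Eng, a co-receptor for transforming growth factor beta, and Egfl7, a secreted endothelial factor, had KO means of 8.78 and 17.5 CPM against 9.50 and 17.4 CPM in WT. Pdgfb, the growth factor that recruits pericytes and is also made by neurons, had 16.5 ± 4.02 CPM in KO and 19.2 ± 1.81 CPM in WT. Its lowest KO value, 7.05 CPM, came from KO library 8, and the other KO libraries held at least 15.2 CPM. Without that library Pdgfb had a Ttr-low log2 fold change of -0.10 (SE 0.06) in place of -0.22, all 7 genes were negative in Ttr-low libraries (median -0.16) and 5 of 7 were positive in all (median 0.02).

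Transport genes of the barrier had 6 of 7 negative log2 fold changes in Ttr-low libraries, with a median of -0.03, and 5 of 7 positive in all, with a median of 0.06. Without KO library 8 it was again 6 of 7 negative (median -0.04), and 6 of 7 positive in all (median 0.04). Slco1c1, a carrier of thyroid hormone, ranged from 25.1 to 46.5 CPM in WT and from 21.6 to 40.4 CPM in KO. Slco1a4, an organic anion carrier, had means of 22.7 CPM in KO and 24.4 CPM in WT. The efflux pumps Abcb1a (P-glycoprotein) and Abcg2 had KO means of 18.9 and 11.2 CPM against 19.2 and 11.4 CPM in WT. Abcb1a shares 16.98% of its 50-base stretches with other genes, mostly Abcb1b, so reads may be split between them. Mfsd2a, a lipid carrier that limits vesicle transport across the endothelium, had 17.95 CPM in KO and 18.2 CPM in WT. Slc7a5, a carrier of large neutral amino acids, had 41.0 CPM in both genotypes, and Tfrc 78.7 and 76.8 CPM in KO and WT. These last differences were all smaller than the SD within either genotype.

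Of the other endothelial markers, Vwf and Itm2a had the largest differences in opposite directions. Vwf, the von Willebrand factor of larger vessels and veins, ranged from 6.76 to 27.3 CPM in WT and from 5.65 to 14.8 CPM in KO in Ttr-low libraries. The 4 highest WT libraries, 1, 5, 11 and 19, lay above all KO libraries, and the remaining ones overlapped. Its log2 fold change was -0.46 (SE 0.28) in Ttr-low libraries and -0.06 (SE 0.33) in all, and -0.52 and -0.03 without KO library 8. Itm2a, a membrane protein used as an endothelial marker, had 30.6 ± 7.27 CPM in KO and 26.6 ± 4.11 CPM in WT, with log2 fold changes of 0.20 (SE 0.12) and 0.23 (SE 0.12) in Ttr-low and all libraries. Its highest Ttr-low value, 45.1 CPM, came from KO library 8. Without that library the KO level was 28.5 ± 4.62 CPM, and the log2 fold changes were 0.10 (SE 0.10) and 0.18 (SE 0.12). These 2 genes were chosen for description after their values were seen. Emcn, a sialomucin of veins and capillaries, had 2.79 CPM in KO and 2.76 CPM in WT. Ly6c1 and Ly6a, endothelial surface antigens, had KO means of 13.7 and 8.58 CPM against 14.9 and 10.1 CPM in WT. Ly6c1 shares 36.7% of its 50-base stretches with other genes, mostly Ly6c2, and Ly6a 10.04%, so both are uncertain.

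Pericyte genes had log2 fold changes from -0.16 to 0.15 in Ttr-low libraries and from -0.10 to 0.24 in all. Abcc9 was the lowest and Vtn the highest in both sets, with SEs for Vtn of 0.19 and 0.23. Pdgfrb, the receptor for Pdgfb that defines mural cells, had lowest, median and highest values of 10.3, 15.2 and 17.7 CPM in WT and 12.1, 14.7 and 16.6 CPM in KO in Ttr-low libraries. The KO range lay inside that of WT, whose low end was WT library 24. Its log2 fold change was -0.06 (SE 0.08, edgeR adjusted p = 0.813) in Ttr-low libraries and -0.01 (SE 0.08, adjusted p = 0.973) in all. Abcc9 and Kcnj8, which form an ATP-sensitive potassium channel of pericytes, had KO means of 4.89 and 1.94 CPM against 5.44 and 2.02 CPM in WT. Rgs5 had 62.9 CPM in KO and 65.8 CPM in WT, and Vtn 36.4 and 32.7 CPM. In all, 4 of 5 log2 fold changes were negative in Ttr-low libraries and 3 of 5 in all libraries, with and without KO library 8.

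Smooth muscle genes varied several-fold between libraries of the same genotype. Acta2, which encodes smooth muscle actin (chromosome 19 at 34241090 to 34255590), had lowest, median and highest values of 3.49, 5.85 and 14.4 CPM in Ttr-low WT libraries and 1.91, 6.52 and 13.4 CPM in KO. WT library 11 and KO library 8 were the highest and KO library 22 the lowest, and the groups overlapped. Its log2 fold change was -0.02 (SE 0.33, edgeR adjusted p = 0.987) in Ttr-low libraries, -0.22 without KO library 8 and 0.18 without WT library 11. In all libraries it was 0.20 (SE 0.35, adjusted p = 0.897). Tagln (transgelin) and Myh11 (smooth muscle myosin) had KO means of 4.26 and 5.08 CPM against 3.88 and 5.15 CPM in WT. The exons of Tagln overlap those of Gm48529 on the opposite strand over 62.4% of their length, and whether counting used strand is not given in the sources used here. Cnn1 had 0.40 ± 0.23 CPM in KO and 0.38 ± 0.36 CPM in WT. The KO means without KO library 8 were 3.69 CPM for Tagln, 4.28 CPM for Myh11 and 0.35 CPM for Cnn1, all below WT. The Ttr-low log2 fold change of Tagln then turned from 0.14 to -0.06 (SE 0.39), and the median of the 3 tested genes moved from -0.02 to -0.22, while all 3 stayed positive in all libraries.

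Slc6a13, Col1a2 and Col3a1 had the highest SDs of log2 CPM within genotype among the 40 genes over Ttr-low libraries (1.11, 1.097 and 1.09), while Col1a1, at 0.75, was below the smooth muscle genes. Col1a2 had lowest, median and highest values of 3.41, 6.79 and 20.0 CPM in Ttr-low WT libraries and 1.54, 8.21 and 25.4 CPM in KO. The highest were WT library 11 and KO libraries 8, 13 and 4, the lowest KO libraries 18 and 22, so KO libraries lay at both ends. Col1a1, the partner chain of type I collagen, had 5.56 ± 2.91 CPM in KO and 4.76 ± 2.61 CPM in WT, which gave a log2 fold change of 0.22 with an SE of 0.33 (edgeR adjusted p = 0.823), or 0.04 without KO library 8. In all libraries its log2 fold change was 0.27 (SE 0.35, adjusted p = 0.861). Slc6a13, a GABA and taurine carrier of meningeal and perivascular fibroblasts, ranged from 1.92 to 15.3 CPM in WT and from 1.24 to 15.5 CPM in KO. The genotypes covered the same range for this gene too. Col3a1 and Lum, a proteoglycan that binds collagen, had KO means of 2.72 and 6.51 CPM against 1.84 and 5.53 CPM in WT. For this group 5 of 6 log2 fold changes were positive in each set, with medians of 0.34 in both, and none passed the test. KO library 8 was the highest Ttr-low library for Col1a2, Col3a1 and Slc6a13 (25.4, 7.29 and 15.5 CPM). Without it 5 of 6 were again positive, but the median was 0.16 in Ttr-low libraries and 0.25 in all. The Ttr-low log2 fold changes of Col1a2, Col3a1 and Slc6a13 were then 0.14, 0.18 and 0.27 in place of 0.45, 0.56 and 0.52, and the KO mean of Col3a1 was 2.07 CPM. Col4a1, the basement membrane collagen that endothelial cells and pericytes make, was the negative one, with 49.6 ± 10.6 CPM in KO and 52.5 ± 6.42 CPM in WT.

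**Figure D2:**
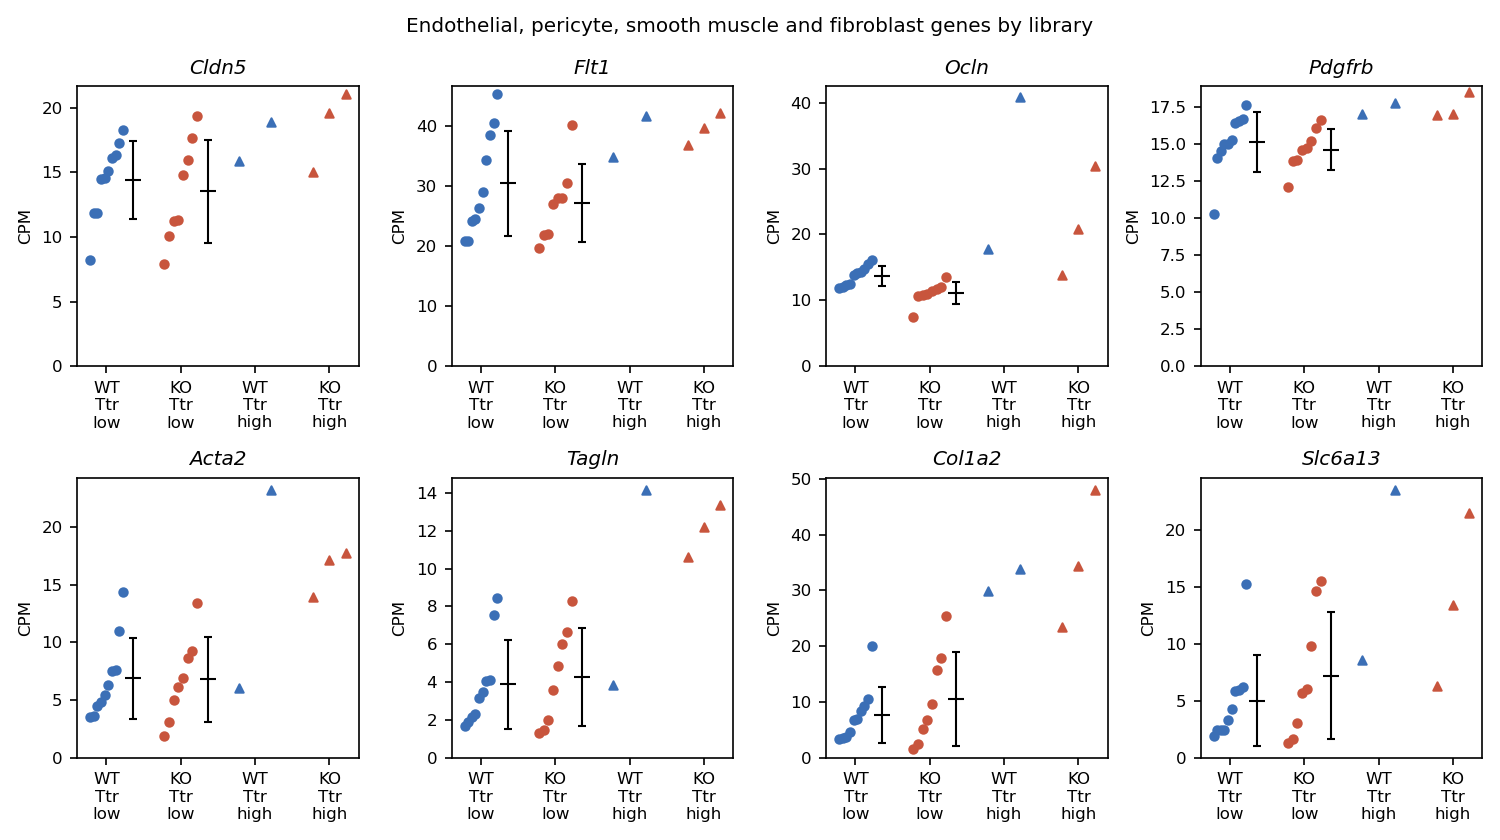
Level in CPM (y axis, from 0) of 8 vascular genes in each library, by genotype (WT blue, KO red) and Ttr class (circles Ttr-low, triangles Ttr-high), with mean and SD beside each Ttr-low group. WT and KO overlap in every panel among Ttr-low libraries, and Acta2, Tagln, Col1a2 and Slc6a13 spread several-fold within each genotype.

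The spread between libraries was wider for most smooth muscle and fibroblast genes than for most endothelial and pericyte genes, a difference that was not tested. The SD of log2 CPM within genotype over the 18 Ttr-low libraries had a median of 0.21 over all tested genes. It was 0.31 for the 25 endothelial genes and 0.31 for pericyte genes, against 0.78 for smooth muscle genes and 0.92 for fibroblast and matrix genes. These medians were 0.26, 0.31, 0.75 and 0.86 without KO library 8. Ranked among all tested genes by this SD, smooth muscle genes had a median percentile of 95.9 and fibroblast and matrix genes of 96.9. The highest Ttr-low library exceeded the lowest 16.5-fold for Col1a2 (12.97-fold without KO library 8), 12.5-fold for Slc6a13, 12.3-fold for Col3a1 and 7.55-fold for Acta2, and 28.4-fold for Cnn1, which had the fewest counts. For Cldn5 that ratio was 2.45, for Col4a1 1.95 and for Tjp1 1.44. The fibroblast and matrix group was split, with SDs of 0.25 for Col4a1 and 0.32 for Lum, near the endothelial median, and 0.75 to 1.11 for the other 4. Among endothelial genes Vwf had the highest SD, 0.63.

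**Figure D3:**
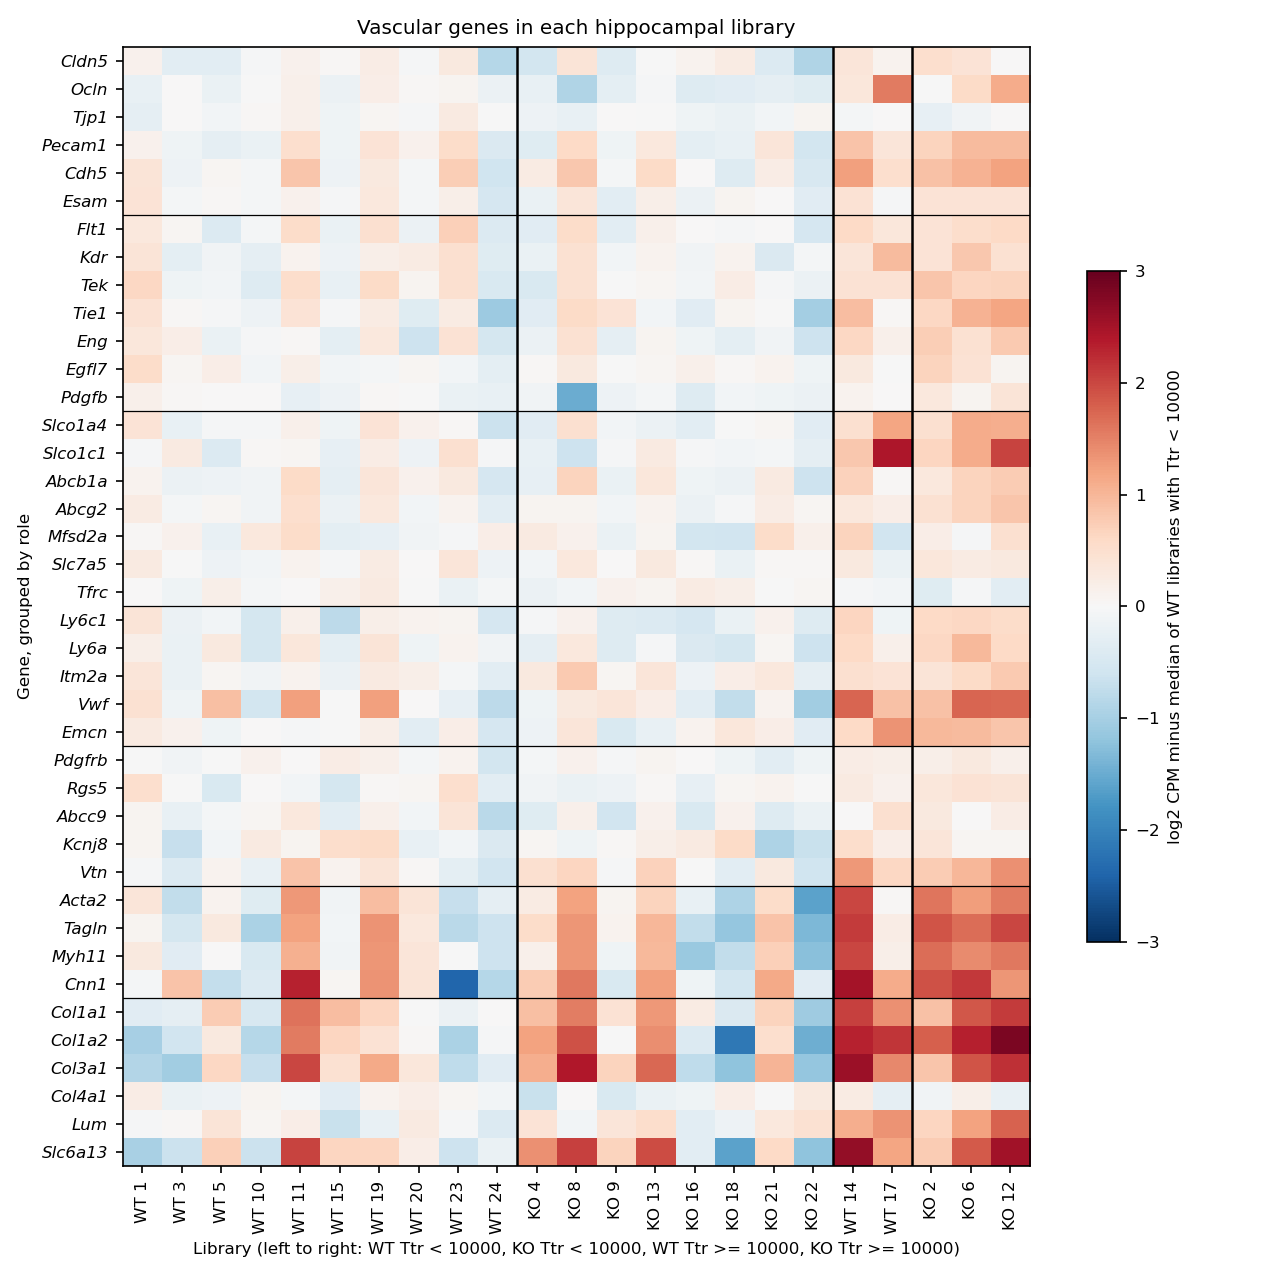
Level of the 40 genes (rows, grouped by role) in each of the 23 libraries (columns), as log2 CPM minus the median of Ttr-low WT libraries. Smooth muscle and fibrillar collagen rows reach high and low values in libraries of both genotypes, WT libraries 11 and 19 and KO libraries 8 and 13 being high, and are high in 4 or more of the 5 Ttr-high libraries at the right.

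Smooth muscle genes varied together across the 18 Ttr-low libraries, as did Col1a1, Col1a2, Col3a1 and Slc6a13, and 1 pair was tested between these groups. Correlations of log2 CPM were computed for 16 pairs, with permutation tests of 100000 resamples, two-sided, adjusted over the 16 pairs. Acta2 and Tagln had r = 0.94 and rho = 0.95, and Acta2 and Myh11 had r = 0.90 and rho = 0.92, both at the smallest p the permutations can give, 1e-05 (adjusted p = 3.2e-05). Col1a1 correlated equally closely with Col1a2 (r = 0.94, rho = 0.95), Col3a1 (r = 0.93, rho = 0.90) and Slc6a13 (r = 0.96, rho = 0.95), at the same permutation p. Between the cell types, Acta2 and Col1a1 had r = 0.84 (permutation p = 2e-05, adjusted p = 5.33e-05) and rho = 0.77 (permutation p = 0.00036, adjusted p = 0.00072). Within genotype r was 0.68 in WT and 0.98 in KO, and it was 0.73 without WT library 11 and KO library 22, the 2 farthest from the median of Acta2. Tagln and Cnn1 had r = 0.79 and rho = 0.77 (permutation p = 7e-05 and 0.00033, adjusted p = 0.00016 and 0.00072). Lum and Col4a1 were in no pair. Lum stood at 7.70 CPM in KO library 22, the lowest Ttr-low library for Acta2, and at 5.26 CPM in KO library 8, the highest for Col1a2, within a Ttr-low range of 3.50 to 8.09 CPM, so these libraries did not have the same extremes for Lum. Without the 2 farthest libraries the other 6 of these pairs kept r of 0.79 to 0.95.

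Cldn5 was paired with genes of each vessel cell type. Cldn5 and Flt1 had r = 0.79 and rho = 0.79 (permutation p = 0.00014 and 0.0002, adjusted p = 0.00028 and 0.000533), and 0.74 without KO library 22 and WT library 24, the 2 farthest in Cldn5. Cldn5 and Pecam1 had r = 0.68 and rho = 0.67 (permutation p = 0.00205 and 0.00301, adjusted p = 0.00328 and 0.00535), and r = 0.53 without those libraries. Cldn5 and the pericyte gene Pdgfrb had r = 0.69 and rho = 0.65 (permutation p = 0.00172 and 0.00473, adjusted p = 0.00306 and 0.00757), and r = 0.54 without those libraries. Within genotype, r of Cldn5 was 0.83 in WT and 0.54 in KO with Pecam1, and 0.86 and 0.50 with Pdgfrb. Without KO library 8 these KO values were 0.32 and 0.31. With Flt1 r was 0.77 in WT and 0.85 in KO, or 0.81 in KO without KO library 8. Cldn5 did not pass with the smooth muscle or the fibroblast gene tested: Cldn5 and Acta2 had r = 0.41 and rho = 0.28 (permutation p = 0.0879 and 0.26, adjusted p = 0.128 and 0.297), and r = 0.12 without the same 2 libraries. Cldn5 and Col1a1 had r = 0.29 and rho = 0.18 (adjusted permutation p = 0.29 and 0.514). Pdgfrb had r = 0.24 (rho = 0.37) with Acta2 and r = 0.29 (rho = 0.39) with Col1a1, and Abcc9 had r = 0.34 (rho = 0.30) with Kcnj8, with adjusted permutation p from 0.16 to 0.357. Pdgfrb and Rgs5, both pericyte genes, had r = 0.06 and rho = -0.14 (adjusted permutation p = 0.814 and 0.587). Within genotype their r was 0.18 in WT and -0.63 in KO, or -0.54 in KO without KO library 8. In total 10 of 16 pairs passed an adjusted p under 0.05 by both measures, and as many did so with the genotype means taken out and without KO library 8. The difference between these correlations was not tested.

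**Figure D4:**
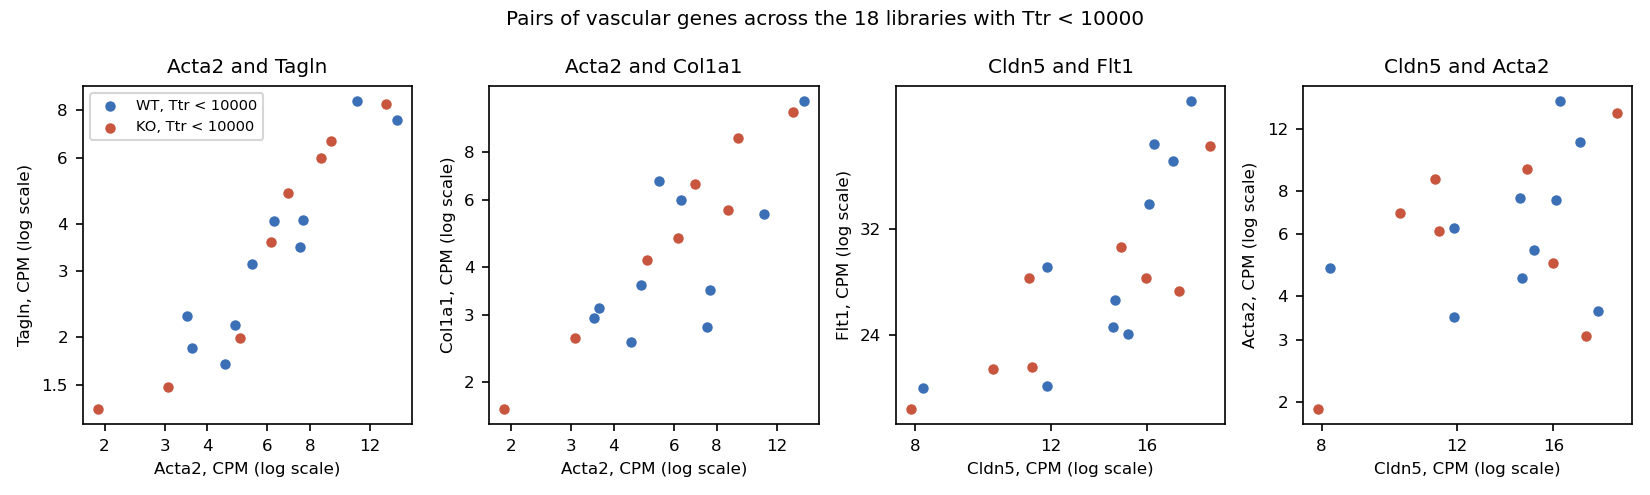
Level in CPM of 4 gene pairs (both axes on a log scale) in the 18 Ttr-low libraries, WT blue and KO red, 1 point per library. Points follow a narrow band for Acta2 with Tagln (r = 0.94) and a wider one for Acta2 with Col1a1 (r = 0.84) and Cldn5 with Flt1 (r = 0.79), and scatter for Cldn5 with Acta2 (r = 0.41).

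Most vascular genes were higher in the 5 Ttr-high libraries. The median of these 5 exceeded the median of the 18 Ttr-low libraries for 37 of 40 genes, against 44.8% of all tested genes, with a median ratio of 1.67 over the 40 against 0.98 over all tested genes. These were again 37 of 40 and 1.69 without KO library 8. By cell type the ratio over all 18 was 1.60 for endothelial genes, 1.24 for pericyte genes, 3.23 for smooth muscle genes and 2.73 for fibroblast and matrix genes. The exceptions were Tjp1 (0.98), Col4a1 (0.96) and Tfrc (0.94). All 5 Ttr-high libraries lay above all 18 Ttr-low ones for 4 of 40 genes, Slco1a4, Slco1c1, Emcn and Lum, against 1.18% of all tested genes. Without KO library 8 there were 6, adding Itm2a and Col1a2, against 1.81% of all tested genes. These libraries were set apart by Ttr, and no test was made between them and the rest. Choroid plexus epithelial genes (15 genes, none at 0) summed to 4832 to 30276 CPM in them and to 171 to 388 CPM in the others. Ttr, which set the classes, is among these 15, so a gap in this sum was fixed in advance. It reached 18381 CPM in a WT and 12363 CPM in a KO library. Haemoglobin and other blood genes (5 genes, none at 0) summed to 197 to 281 CPM (median 230) in Ttr-high libraries against 79.0 to 566 CPM. Their Ttr-low medians were 137 CPM in WT and 145 CPM in KO. The 566 CPM was WT library 5, and the next highest Ttr-low library was WT library 15 at 208 CPM. The part of choroid plexus and blood in these differences was not tested.

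The Ttr-high libraries did not share a single pattern over these genes. Slco1c1 stood at 58.7 CPM in WT library 14, 52.1 in KO library 2, 72.4 in KO library 6, 136 in KO library 12 and 181 CPM in WT library 17, against at most 46.5 CPM in Ttr-low libraries. Ocln stood at 17.7, 13.9, 20.8, 30.4 and 40.9 CPM in the same order. Both genes were highest in WT library 17 and KO library 12, which also held the most Ttr. Acta2 stood at 23.2, 17.7, 13.96, 17.1 and 6.01 CPM in that order. It was highest in WT library 14, the Ttr-high library with the least Ttr, and in WT library 17, with the most Ttr, it lay within the range of Ttr-low libraries. Col1a2 stood at 33.8, 23.4, 34.4, 48.0 and 29.9 CPM, and KO library 8 at 25.4 CPM exceeded the lowest of these.

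**Figure D5:**
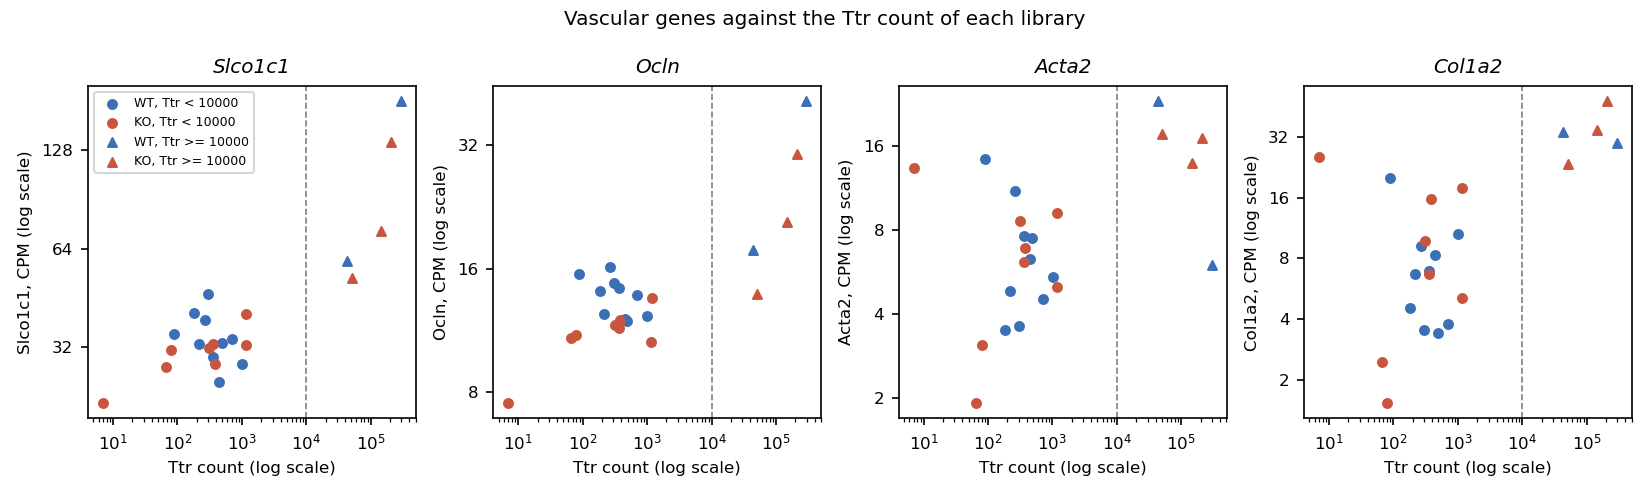
Level in CPM (y axis, log scale) of Slco1c1, Ocln, Acta2 and Col1a2 against the Ttr count (x axis, log scale) in each of the 23 libraries, WT blue and KO red, with the dashed line at 10000. Slco1c1 and Ocln are highest in the 2 libraries with the most Ttr, whereas Acta2 is highest at 43446 Ttr counts and stands at 6.01 CPM at 296745.

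Single libraries stood out across many members. Among Ttr-low libraries, KO library 8 was above all other Ttr-low libraries for 12 of 40 genes and below them for 3, namely Ocln, Slco1c1 and Pdgfb. WT library 11 was the highest for 7 genes, and WT libraries 1 and 23 for 6 each. KO library 22 was the lowest for 12 genes and WT library 24 for 11. Both genotypes thus had a library at the low end for Cldn5, Pecam1, Cdh5, Esam and Flt1.

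Further vascular genes, from 9 lists chosen for this tissue, gave the same count of calls. By edgeR's test 0 genes of any list were called in either set, and DESeq2 and limma voom called 0 as well. At an unadjusted p under 0.05 were 12 of the 134 distinct genes tested in Ttr-low libraries (8.96%), near the 9.14% of all tested genes, and 2 of 135 in all libraries (1.48%) against 5.74%. In Ttr-low libraries without KO library 8 there were 7 of 134 (5.22%) against 8.05%. Of 21 further endothelial markers, 17 were negative in Ttr-low libraries with a median log2 fold change of -0.16 against -0.00 over all tested genes, and 10 were negative in all libraries with a median of 0.00. At an unadjusted p under 0.05 in Ttr-low libraries were Robo4, an endothelial guidance receptor (log2 fold change -0.53, SE 0.14, edgeR adjusted p = 0.529), and Foxq1, a forkhead factor of brain endothelium (-0.47, SE 0.19, adjusted p = 0.538). Robo4 stood at 2.23 ± 0.43 CPM in KO and 3.21 ± 0.66 CPM in WT. Of 12 tested arterial, venous and activated endothelial genes, 9 were positive, and Slc38a5, a glutamine carrier, had -0.37 (SE 0.17, adjusted p = 0.54). In all libraries Slc38a5 had 0.07 (SE 0.22). Lists of other cells, with KO library 8 included, also had negative values in Ttr-low libraries. These were 5 of 5 blood (median -0.35), 5 of 5 ependymal (-0.16) and 9 of 9 neuronal genes (-0.22). Among choroid plexus genes it was 7 of 11, among microglial and astrocyte genes 4 of 6 each, and all 3 hypothalamic genes were positive.

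Of 10 further pericyte markers tested in Ttr-low libraries 8 were positive, and P2ry14, a nucleotide-sugar receptor, had 0.34 (SE 0.16, edgeR adjusted p = 0.543). It was also at an unadjusted p under 0.05 in all libraries, with 0.43 (SE 0.15, adjusted p = 0.781), and stood at 2.03 CPM in Ttr-low KO and 1.60 CPM in WT. Of 7 smooth muscle markers 3 were positive, and of 15 fibroblast and leptomeningeal markers 11 were, none at an unadjusted p under 0.05. Basement membrane genes had 5 of 12 positive. Sparc, a matrix glycoprotein, had 368 ± 364 CPM in KO and 208 ± 34.1 CPM in WT, a difference of 0.81 on the log2 scale (SE 0.31, unadjusted p = 0.0186, edgeR adjusted p = 0.538), and 0.68 (SE 0.27, adjusted p = 0.781) in all libraries. KO library 8 held 1260 CPM and the other 7 KO libraries 173 to 341 CPM, which overlapped the WT range of 153 to 279 CPM. Without that library the difference was 0.21 (SE 0.12, unadjusted p = 0.111, edgeR adjusted p = 0.659) in Ttr-low libraries and 0.20 (SE 0.10, adjusted p = 0.967) in all. Lamc1, a laminin chain, had -0.17 (SE 0.07, adjusted p = 0.54). Growth factor genes had 8 of 17 positive, with Jag1, a Notch ligand, at -0.28 (SE 0.08, adjusted p = 0.538) and Nrp2, a co-receptor for semaphorins, at -0.23 (SE 0.08, adjusted p = 0.538).

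Genes of Wnt signalling and barrier maintenance had 12 of 23 positive in Ttr-low libraries. Apcdd1, a Wnt inhibitor, had a log2 fold change of -0.27 (SE 0.11), Cgn (cingulin) 0.88 (SE 0.40) and Lef1, a Wnt transcription factor, 0.68 (SE 0.32), with edgeR adjusted p from 0.538 to 0.543. Cgn stood at 7.85 ± 8.82 CPM in KO and 4.21 ± 1.74 CPM in WT, and KO library 8 alone at 29.5 CPM. Without that library Cgn had 0.17 (SE 0.24, edgeR adjusted p = 0.854) and Lef1 0.43 (SE 0.29, adjusted p = 0.687). Further barrier transporters had 9 of 19 positive, with Slc6a6, the taurine carrier, at -0.13 (SE 0.06, adjusted p = 0.54). In all libraries the log2 fold changes were -0.27 for Robo4, -0.32 for Foxq1, -0.07 for Lamc1, -0.14 for Jag1 and -0.14 for Nrp2. There Apcdd1 had -0.12, Cgn 0.63, Lef1 0.56 and Slc6a6 -0.06. The comparison without KO library 8 was added for these named genes after seeing the data. It changed the direction of none of the 12, and Robo4, Foxq1, Lamc1, Jag1 and Nrp2 remained at an unadjusted p under 0.05 in Ttr-low libraries. Without it, in Ttr-low libraries, 18 of 21 endothelial markers were negative, with a median of -0.19, and 4 were at an unadjusted p under 0.05 (against 8.05% of all tested genes and 7 of 134 over the 9 lists), all with a lower KO level: Robo4, Foxq1 and, named after their values were seen, Adgrf5 and Mmrn2. Positive log2 fold changes were then found for 7 of 12 arterial, venous and activated endothelial genes, 6 of 10 pericyte, 2 of 7 smooth muscle and 10 of 15 fibroblast markers. The remaining lists had 2 of 12 basement membrane, 5 of 17 growth factor, 10 of 23 Wnt and barrier maintenance and 7 of 19 transporter genes positive. By edgeR's test no gene of any list was called in either set.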

How the data were processed

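RNA of 23 hippocampi (1 library each) was sequenced after library preparation with a stranded mRNA kit, per the labels' protocols. The table deposited by the authors holds estimated counts for each gene, partly fractional (24.6% to 27.2% of non-zero values in a library). The submitters' processing notes name bcl2fastq, STAR and mm10, and the counting program, its use of strand and the annotation are not given in the sources used here. All columns were matched to samples by library name, 0 unmatched. Gene positions are from GENCODE M21 on GRCm38, and promoters from RefSeq.

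Rounded counts entered edgeR 4.0.16 under R 4.3.3: filterByExpr by genotype, TMM scaling, quasi-likelihood F test with robust estimation, Benjamini-Hochberg adjustment over all tested genes, threshold 0.05. The fit was made on all libraries and again on libraries with a Ttr count under 10000. Standard errors were derived from each fold change and its F value. CPM use TMM-scaled library sizes, and correlations use log2 CPM with a prior count of 2 (scipy 1.17.1, numpy 2.4.6, Python 3.11.15). Tested on simulated data with 50 changed genes of each size, the fit recovered 70% of 1.5-fold and 88% of 2-fold changes among the 15828 genes in all libraries, and 78% and 88% among the 15879 genes in Ttr-low libraries. The changed genes were drawn at random, and many true changes at once make the adjusted threshold easier to pass. The 40 vascular genes had a median percentile of 71.7 in SD among all tested genes. These shares are therefore not the chance of finding such a change in the vascular genes. Libraries of one genotype differed by more than sampling noise (chi-square per degree of freedom at least 7.34). Shared sequence was counted as 50-base stretches found in another gene.

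All 40 genes are described by role. Test values are given for those at an unadjusted p under 0.05 in either set and for Cldn5, Pdgfrb, Acta2 and Col1a1, and, of each further list, for up to 4 genes at an unadjusted p under 0.05. The members and lists were chosen with earlier results of these data known. Alternatives tried were RLE scaling, DESeq2 1.42.0, limma 3.58.1 voom with quality weights, no filter, a minimum mean of 50 counts, log2 Ttr CPM as a covariate, a threshold of 0.10, and leaving out each library.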

Additional observations from a re-analysis of the deposited data

Results flagged for a closer look

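In groups of Ttr-low libraries of 1 genotype, 9 of 80 gene-by-genotype groups had a highest or lowest library whose gap to the next exceeded Dixon's 95% critical value. For normal data chance gives about 1 in 20 such groups. The values were CPM without log transformation, so that rate need not hold here, and groups of genes that vary together are not independent. WT library 11 was far above the other 9 WT libraries for Col1a1 (10.9 CPM), Col1a2 (20.0 CPM), Col3a1 (5.51 CPM), Slc6a13 (15.3 CPM) and Cnn1 (1.27 CPM). KO library 8 was far below the other 7 KO libraries for Pdgfb (7.05 CPM) and far above them for Slco1a4 (32.9 CPM). WT library 1 was far above the other WT libraries for Egfl7 (24.3 CPM), and WT library 24 far below them for Pdgfrb (10.3 CPM).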

How the results depend on the processing

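No vascular gene was called in any of 31 fits of all libraries or 26 of Ttr-low libraries; the smallest adjusted p were 0.293 (Tjp1) and 0.0831 (Ocln), both by limma voom. Genes called overall were 2 in all libraries, against 4 by DESeq2, 5 by limma voom, 1 with a mean of at least 50 counts and 2 to 3 with 1 library left out. In Ttr-low libraries 1 was called, against 3 at a threshold of 0.10, 21 by DESeq2, 13 by limma voom and 1 to 2 with 1 library left out (2 without WT library 19, 20 or 23 or KO library 8). The median log2 fold change of the vascular genes ranged from -0.00 to 0.11 in all libraries and from -0.10 to -0.01 in Ttr-low ones with 1 library left out, and was -0.02 in all libraries by limma voom. Cldn5 in all libraries changed sign, to 0.00279 with RLE, 0.00285 by DESeq2, 0.00136 without the filter and 0.00502 with the filter at 50, and ranged from -0.0603 to 0.065 with 1 library left out; Pdgfrb there ranged from -0.0506 to 0.0197. Acta2 in Ttr-low libraries was 0.043 by limma voom and -0.22 to 0.176 with 1 library left out. Without KO library 8, Esam (-0.000875), Pdgfb (0.0235) and Slco1c1 (0.00208) changed sign in all libraries, and Egfl7 (-0.0247), Emcn (-0.0478) and Tagln (-0.0602) in Ttr-low ones; the median of junction genes in all libraries turned to -0.019. The values of single genes that changed sign lay within 1 standard error of 0, and the cause of each change was not tested. No paired analysis was made because the labels name no litter, batch or pairing, and the replicate numbers run once over both genotypes. Counts of 1 to 22 per library limit Cnn1, and intervals reaching 1 on the log2 scale limit Col1a2, Col3a1 and Slc6a13 in both sets, Tagln in all libraries and Vwf in Ttr-low ones.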
